A study of Mus musculus with 6 samples.

Results

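Endothelial identity genes are the genes by which cells lining blood vessels are recognised, and 10 of them were followed in mouse cranial base, the cartilage on which the brain rests, at E15.5. They were chosen by name, as Pecam1, Cdh5, Kdr, Flt1, Tek, Tie1, Emcn, Eng, Cldn5 and Plvap, and each of the 10 had an entry among the 43496 gene entries of the RNA-seq table. The tissue came from 3 Memo1 mutant embryos, which carried an ENU allele of Memo1, and from 3 embryos labelled control, with 1 library per embryo. All 6 embryos were of the C57BL/6J strain. ENU mutates DNA chemically, and Memo1 encodes an effector of ERBB receptor signalling. The sources used here give neither the zygosity of the allele nor the alleles of the controls.

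Vessels grow by sprouting under vascular endothelial growth factor (VEGF), which signals through the receptor tyrosine kinase VEGFR2, the product of Kdr, while VEGFR1, the product of Flt1, binds the same ligand tightly and acts largely as a decoy. The angiopoietin receptor TIE2, the product of Tek, and its partner TIE1 steady the vessel wall, endoglin (Eng) is a co-receptor for ligands of the BMP and TGF-beta family, and VE-cadherin (Cdh5), PECAM-1 and claudin-5 (Cldn5) join endothelial cells to each other. Plvap forms the diaphragms of fenestrated and immature vessels, and Emcn encodes the sialomucin endomucin of capillaries and veins. Mature cartilage is avascular, so in this tissue vessels lie in perichondrium, in bone and in the surrounding mesenchyme.

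Values are FPKM, fragments per kilobase of transcript scaled to library size, so levels compare between genes. The depth of mutants 2 and 3 was 116% and 152% of that of control 1, and the depth of controls 2 and 3 was 80.2% and 92.3% of it, read from the steps between low values. Mutant 1 had no usable steps. Mutant 1 stood apart from every other library. It listed 30811 entries at 0, against 19787 to 20594 in the others, and its log2 values correlated with theirs at r = 0.748 to 0.762 across the genes tested, against 0.968 to 0.981 among the other 5 libraries (across genes, which are not independent replicates). Changes are therefore given with and without mutant 1. The reads behind single values are not given, so no counting error can be stated, and all errors and p-values rest on the spread between embryos.

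All 10 genes were above 0 in all 6 libraries. In controls Cdh5 was highest, at 49.3 ± 3.85 FPKM, and Flt1 lowest, at 4.89 ± 0.524 FPKM (SD, n = 3). Between them came Pecam1, Eng, Plvap, Emcn, Cldn5, Tie1, Kdr and Tek, in the same order in each of the 3 controls. Neighbours in this order did not overlap between the controls, except Pecam1 (35.7 to 39.5 FPKM) with Eng (32 to 37.5 FPKM), and Cldn5 (16.7 to 20 FPKM) with Tie1 (15.9 to 18.1 FPKM). Mutant 3 had the order of the controls. In mutant 2 Plvap, Eng and Pecam1 lay within 40 to 40.1 FPKM and Tie1 just above Cldn5, and in mutant 1 Eng stood first and Tek last. Summed over the 10 genes the level was 290, 275 and 254 FPKM in mutants 1, 2 and 3, against 225, 254 and 236 FPKM in controls 1, 2 and 3. In bulk tissue a different number of endothelial cells and a different amount of RNA per endothelial cell cannot be told apart.

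**Figure D1:**
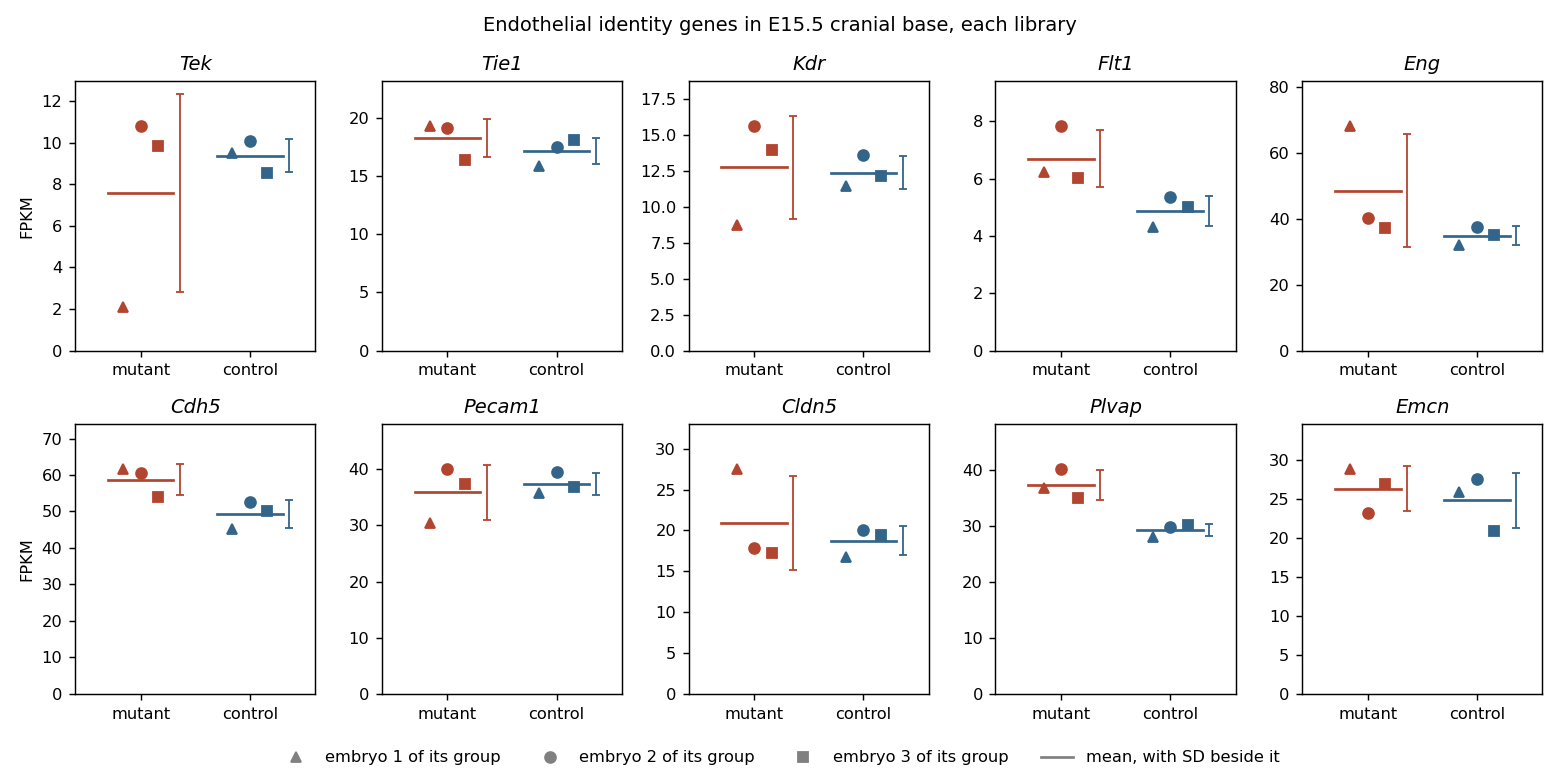
FPKM of the 10 endothelial identity genes in each library, mutants left and controls right in each panel; the horizontal line is the group mean and the bar beside it the SD (n = 3). In Flt1, Cdh5 and Plvap the 3 mutants lie above the 3 controls, and in Tek, Kdr, Eng and Cldn5 mutant 1 lies away from mutants 2 and 3.

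The comparison asked whether these genes differ in mutant cranial base, and none passed the test. For 8 of the 10 genes the log2 change of mutants against controls was above 0 (45.8% of all 15710 genes tested), with a median of 0.10 over the 10 and -0.046 over all genes. In 3 of them, Flt1, Cdh5 and Plvap, each mutant lay above each control, as in 8.98% of all genes, and in 0 of them each mutant lay below each control, as in 11.9% of all genes (20.9% in either direction). With limma and Benjamini-Hochberg adjustment 0 of the 10 passed an adjusted p of 0.05, nor did any of the 15710 genes (0%), and 1 of the 10, Plvap, had an unadjusted p under 0.05, as had 805 of all genes (5.12%). Without mutant 1 the counts were 9 genes above 0 (47% of all genes), 4 with both mutants above the controls (16.2%), 0 with both below (20.1%), 2 with an unadjusted p under 0.05, Flt1 and Plvap, both higher (17% of all genes in either direction and 7.56% as higher), and 0 with an adjusted one (7 of all genes, 0.0446%). With array weights, which let a library far from its group count less and gave mutant 1 a weight of 0.0329 against 1.47 to 2.76, limma called 320 genes (2.04%, of which 0.719% of all genes higher and 1.32% lower) and 0 of the 10. When libraries were scaled to their upper quartiles the count of the 10 above 0 was 5 (37.8% of all genes) and that of genes with each mutant above each control was 1, here Eng (7.73% of all genes). That scaling moved the median of all genes to -0.13. Mutant 1 had an upper quartile of 33.1 FPKM, against 25.7 to 26.4 FPKM in the others, and with mutant 1 left out the same scaling gave 9 above 0 (50.6% of all genes) and 6 with both mutants above the controls (18.5%).

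**Figure D2:**
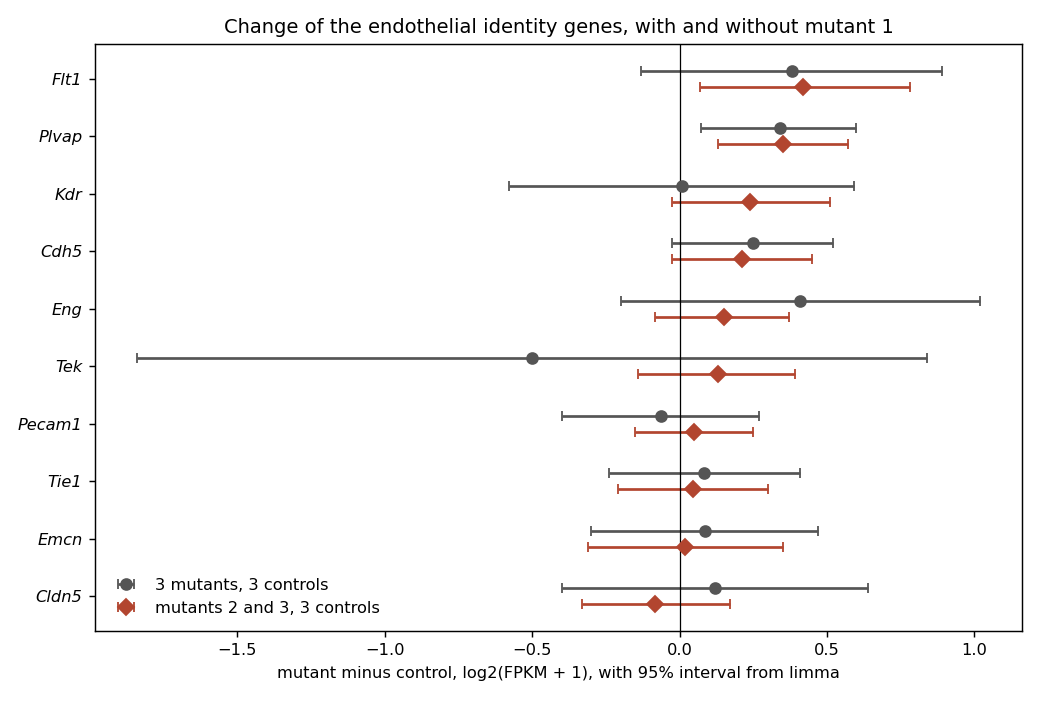
Log2 change of each endothelial identity gene, mutant minus control on the log2(FPKM + 1) scale, with its 95% interval from limma, for all embryos (circles) and without mutant 1 (diamonds). The interval of Plvap lies above 0 in both, and that of Tek runs over -1.84 to 0.84 with all embryos and over -0.14 to 0.39 without mutant 1.

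Of the VEGF receptors, Flt1 was higher in every mutant than in any control and Kdr was not. Flt1 was 6.22, 7.84 and 6.04 FPKM in mutants 1, 2 and 3, against 4.32, 5.35 and 5 FPKM in controls 1, 2 and 3. The groups did not overlap, and mutant 3 and control 2 lay closest. For Flt1 the log2 change was 0.38, SE 0.207 (limma adjusted p = 0.695), and 0.42, SE 0.147, without mutant 1 (limma adjusted p = 0.23). Kdr was 8.73, 15.6 and 13.9 FPKM in mutants 1, 2 and 3, against 11.4, 13.6 and 12.1 FPKM in controls 1, 2 and 3. Mutants 2 and 3 were above the controls and mutant 1 below them. The log2 change of Kdr was 0.0082, SE 0.237 (limma adjusted p = 0.987), and 0.24, SE 0.11, without mutant 1 (limma adjusted p = 0.34). A ratio of receptors within a library does not depend on how libraries are scaled. That of Flt1 to Kdr was 0.712, 0.501 and 0.434 in mutants 1, 2 and 3, against 0.379, 0.393 and 0.414 in controls 1, 2 and 3. Each mutant thus had more Flt1 RNA relative to Kdr RNA than any control, with mutant 3 and control 3 closest. In mutant 1 Kdr was low, at 8.73 FPKM. These are RNA values, and receptor protein was not measured here. This ratio was looked at with the values of both genes known and was not tested.

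Tek was 2.1, 10.8 and 9.85 FPKM in mutants 1, 2 and 3, against 9.48, 10.1 and 8.53 FPKM in controls 1, 2 and 3. Mutant 1 alone was low, and mutants 2 and 3 overlapped with the controls. The log2 change of Tek was -0.50, SE 0.543 (limma adjusted p = 0.702), and 0.13, SE 0.108, without mutant 1 (limma adjusted p = 0.598). Tie1 was 19.3, 19.1 and 16.4 FPKM in mutants 1, 2 and 3, against 15.9, 17.5 and 18.1 FPKM in controls 1, 2 and 3, and the groups overlapped. Its log2 change was 0.084, SE 0.131 (limma adjusted p = 0.761), and 0.045, SE 0.105, without mutant 1 (limma adjusted p = 0.859). The ratio of Tie1 to Tek was 9.2, 1.78 and 1.66 in mutants 1, 2 and 3, against 1.68, 1.73 and 2.12 in controls 1, 2 and 3, so that mutant 1 alone stood off.

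The start sites of these receptors are shown as a description of the pairs, which share ligands or partners and differed in level. Whether their letters bear on the levels or on any difference between embryos was not tested. RefSeq windows of GRCm38.p6, from 250 bases before to 50 after the start site, were at hand for 7 of the 10 genes (Eng, Emcn, Tek, Tie1, Kdr, Flt1 and Cldn5). They are printed on the strand of the gene. Capitals mark the motifs searched on both strands, AGGAAG and CGGAAG of ETS factors, AGATAA of GATA factors, ACAAAG and AACAAT of SOX factors, the GC box GGGCGG and the TATA box TATAAA, so their reverse complements are in capitals too.
Tek, chr4:94739039-94739338, + strand: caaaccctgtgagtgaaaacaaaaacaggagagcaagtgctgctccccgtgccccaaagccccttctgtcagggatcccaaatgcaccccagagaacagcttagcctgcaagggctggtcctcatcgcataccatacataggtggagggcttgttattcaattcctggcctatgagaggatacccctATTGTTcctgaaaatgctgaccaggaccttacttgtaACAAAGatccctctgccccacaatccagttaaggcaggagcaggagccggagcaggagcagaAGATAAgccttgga
Tie1, chr4:118489800-118490099, - strand: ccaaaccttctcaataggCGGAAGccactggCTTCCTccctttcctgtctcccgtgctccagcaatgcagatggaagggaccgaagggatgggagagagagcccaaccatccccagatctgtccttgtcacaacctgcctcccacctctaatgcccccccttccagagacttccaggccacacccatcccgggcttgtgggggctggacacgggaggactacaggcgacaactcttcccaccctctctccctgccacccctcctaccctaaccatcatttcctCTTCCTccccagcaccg
Kdr, chr5:75978406-75978705, - strand: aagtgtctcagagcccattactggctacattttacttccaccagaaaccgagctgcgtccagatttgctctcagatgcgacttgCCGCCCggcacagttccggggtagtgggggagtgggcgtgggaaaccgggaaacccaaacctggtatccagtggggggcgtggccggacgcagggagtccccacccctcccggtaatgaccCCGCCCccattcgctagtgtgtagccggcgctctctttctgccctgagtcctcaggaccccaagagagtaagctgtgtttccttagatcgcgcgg
Flt1, chr5:147725962-147726261, - strand: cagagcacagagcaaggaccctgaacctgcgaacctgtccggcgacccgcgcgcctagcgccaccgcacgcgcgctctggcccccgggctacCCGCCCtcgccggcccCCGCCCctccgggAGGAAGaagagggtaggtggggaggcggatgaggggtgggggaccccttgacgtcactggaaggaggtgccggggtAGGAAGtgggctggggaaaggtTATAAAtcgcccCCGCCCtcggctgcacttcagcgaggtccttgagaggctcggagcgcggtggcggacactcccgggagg

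The windows of each pair differed in these letters. Flt1 held TATAAA at position -31 from the start site, AGGAAG at -129 and -53, and 3 GC boxes, while Kdr held 2 GC boxes and none of the other motifs. Tie1 held CGGAAG at -232 and AGGAAG, on the opposite strand, at -219 and 34. Tek held none of the ETS letters, but AACAAT at -63 on the opposite strand, ACAAAG at -26 and AGATAA at 37. AGGAAG was in 4 of the 7 windows, those of Tie1, Flt1, Eng and Emcn, against 35.4% of all 32851 windows of the same length. GGGCGG was in 3 of 7 (35.7% of all windows), and the SOX letters ACAAAG in 2 of 7 (18.7%) and the others, AACAAT, in 2 of 7 (10.7%), and CGGAAG in 1 of 7 (16.9%). The GATA letters were in 1 of 7 (11.2% of all windows), as was the TATA box (13.6%). A match of letters is a description and does not show that a factor binds.

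Endoglin was high in mutant 1. Eng was 68.1, 40.1 and 37.2 FPKM in mutants 1, 2 and 3, against 32, 37.5 and 35.2 FPKM in controls 1, 2 and 3. Mutant 3 overlapped with control 2. For Eng the log2 change was 0.41, SE 0.247 (limma adjusted p = 0.695), and 0.15, SE 0.0941, without mutant 1 (limma adjusted p = 0.479). Exons of Eng share 61 bases, 1.51% of its exon length, with those of Fpgs on the other strand in GENCODE M21, and the exons of the other 9 genes overlap with no other gene there.

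Among the junction genes VE-cadherin was higher in each mutant and the others overlapped. Cdh5 was 61.6, 60.6 and 53.9 FPKM in mutants 1, 2 and 3, against 45.1, 52.7 and 50.1 FPKM in controls 1, 2 and 3. Mutant 3 lay just above control 2. For Cdh5 the log2 change was 0.25, SE 0.112 (limma adjusted p = 0.695), and 0.21, SE 0.0981, without mutant 1 (limma adjusted p = 0.342). Pecam1, which platelets and leukocytes express as well, was 30.5, 40 and 37.3 FPKM in mutants 1, 2 and 3, against 35.7, 39.5 and 36.8 FPKM in controls 1, 2 and 3. Mutants 2 and 3 overlapped with the controls and mutant 1 lay below them. The log2 change of Pecam1 was -0.062, with an interval from -0.40 to 0.27 (limma adjusted p = 0.822), and 0.049, from -0.15 to 0.25, without mutant 1 (limma adjusted p = 0.799). Cldn5, the claudin of tight junctions in brain vessels, was 27.5, 17.9 and 17.3 FPKM in mutants 1, 2 and 3, against 16.7, 20 and 19.5 FPKM in controls 1, 2 and 3. Mutant 1 was highest of all libraries, and mutants 2 and 3 lay between the controls. Its log2 change was 0.12, SE 0.21 (limma adjusted p = 0.778), and -0.082, SE 0.103, without mutant 1 (limma adjusted p = 0.723).

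Plvap had the smallest p of the 10 genes. It was 36.7, 40.1 and 34.9 FPKM in mutants 1, 2 and 3, against 28, 29.7 and 30.1 FPKM in controls 1, 2 and 3. The gap between the lowest mutant and the highest control was wider than the range of the controls, and here mutant 1 lay between mutants 2 and 3. The log2 change of Plvap was 0.34, SE 0.108 (limma adjusted p = 0.695), with array weights 0.32, SE 0.0809 (limma adjusted p = 0.0959), and without mutant 1 0.35, SE 0.0909 (limma adjusted p = 0.152). In the authors' deposited table Plvap has a signed fold of 1.27, a p-value of 0.00682 and a q-value of 0.246. There Cdh5 has a p-value of 0.0478 and a q-value of 0.419, and Flt1 a p-value of 0.0407 with 99 in place of q. Emcn was 28.8, 23.2 and 26.9 FPKM in mutants 1, 2 and 3, against 25.9, 27.6 and 20.9 FPKM in controls 1, 2 and 3, and the groups overlapped (log2 change 0.085, interval -0.30 to 0.47, limma adjusted p = 0.791, and 0.018, interval -0.31 to 0.35, without mutant 1, limma adjusted p = 0.962).

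Sample titles begin with a word that control 1 shares with mutant 1 and that controls 2 and 3 share with mutant 3, and the sources used here do not say what it stands for. The title word of mutant 2 is its own. Within the second word mutant 3 differed from the mean of controls 2 and 3 by 0.22 for Plvap, 0.19 for Flt1 and 0.068 for Cdh5 on the log2(FPKM + 1) scale. Within the first, mutant 1 differed from control 1 by 0.38, 0.44 and 0.44 for the same genes. Since each mutant lay above each control for these 3 genes, the sign of these differences was given beforehand, and they add only sizes. For Tek the 2 words gave 0.075 and -1.76, and for Cldn5 -0.18 and 0.69, of opposite sign. Each word holds 1 mutant, so no spread can be given within it.

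Mutant 1 departed less for the 10 genes than for most. Its absolute difference from the mean of the other 5 libraries had a median of 0.27 on the log2(FPKM + 1) scale over the 10 genes, against 0.61 over the 11196 genes of at least 5 FPKM. The differences beyond that value were those of Tek, at -1.79, and Eng, at 0.89. Over the other 5 libraries the SD of the log2 values had a median of 0.14 for the 10 genes and 0.14 for those 11196 genes.

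The proportions among the 10 genes were taken as each gene's log2(FPKM) minus the mean of the 10 in the same library, which sets aside how much endothelial RNA a library holds. Flt1 and Plvap stood higher in each mutant than in any control. Flt1 stood at -1.65, -1.55 and -1.80 in mutants 1, 2 and 3, against -2.10, -1.97 and -1.95 in controls 1, 2 and 3. Plvap stood at 0.91, 0.81 and 0.73 in mutants 1, 2 and 3, against 0.60, 0.50 and 0.64 in controls 1, 2 and 3. Pecam1 stood lower in each mutant, at 0.64, 0.80 and 0.83, against 0.95, 0.91 and 0.92 in controls 1, 2 and 3. For Cldn5 mutants 2 and 3, at -0.36 and -0.28, lay below the controls, at -0.15, -0.068 and 0.0095, but mutant 1, at 0.49, lay above them. The ratio of Plvap, a gene of leaky vessels, to Cldn5, a gene of tight ones, was 1.34, 2.25 and 2.02 in mutants 1, 2 and 3, against 1.68, 1.48 and 1.55 in controls 1, 2 and 3. Mutants 2 and 3 were above all controls in this ratio and mutant 1 was below them. These proportions depend on each other, since they add to 0 in a library, and were not tested.

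**Figure D3:**
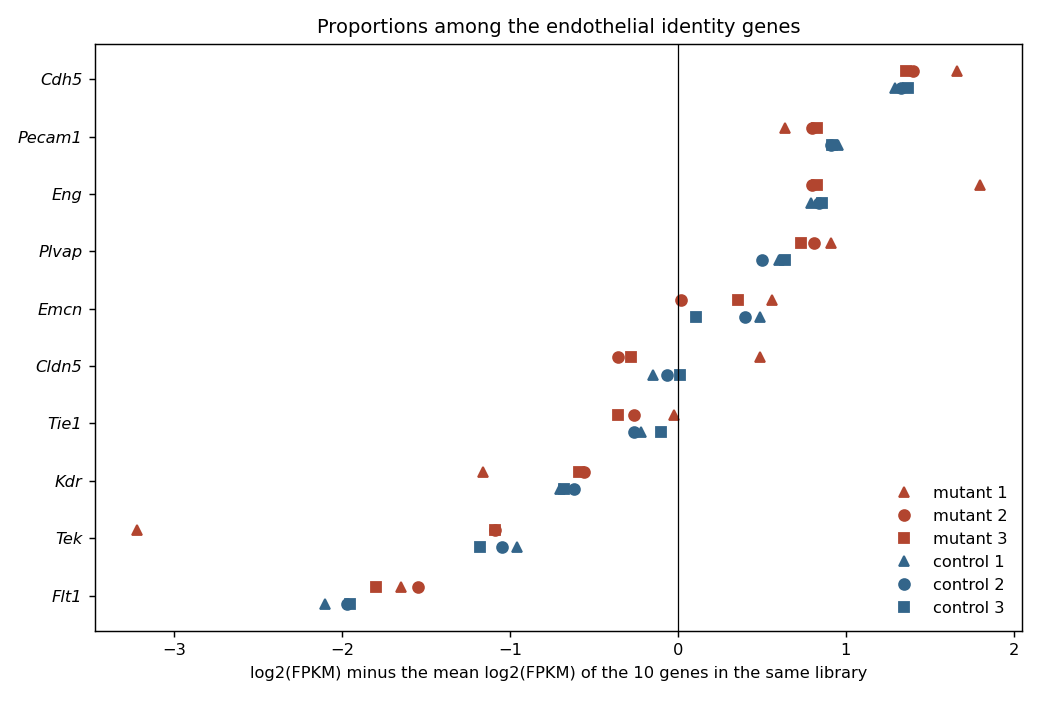
Log2(FPKM) of each endothelial identity gene minus the mean log2(FPKM) of the 10 genes in the same library, one point per library, mutants above and controls below in each row. The 3 mutants lie right of the 3 controls for Flt1 and Plvap and left of them for Pecam1, and mutant 1 is far from all others for Tek (-3.22) and Eng (1.80).

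The ligands of the VEGF receptors were measured in the same libraries. Vegfa, the main ligand, was 47.3, 50.4 and 39 FPKM in mutants 1, 2 and 3, against 29.9, 35.5 and 33.1 FPKM in controls 1, 2 and 3. Its log2 change was 0.46, SE 0.14 (limma adjusted p = 0.695), and 0.43, SE 0.132, without mutant 1 (limma adjusted p = 0.195). Vegfc, the ligand of lymphatic vessels, was 9.92, 8.73 and 7.84 FPKM in mutants 1, 2 and 3, against 5.1, 6.97 and 6.83 FPKM in controls 1, 2 and 3 (log2 change 0.43, SE 0.2, limma adjusted p = 0.695, and 0.36 without mutant 1). For both ligands each mutant lay above each control. Of the 8 genes of this list 5 were above 0, with a median log2 change of 0.092, and 3 had each mutant above each control (8.98% of all genes), Vegfa, Vegfc and the lymphatic receptor Flt4 (5.38 ± 0.157 FPKM in mutants and 4.9 ± 0.233 FPKM in controls, SD, n = 3). Nrp2, a co-receptor of VEGF and semaphorins, was 37.5, 36.7 and 37.8 FPKM in mutants 1, 2 and 3, against 43.4, 42.6 and 40.6 FPKM in controls 1, 2 and 3, each mutant below each control (log2 change -0.17, SE 0.0938, limma adjusted p = 0.695, and -0.18 without mutant 1). Its relative Nrp1 was 23.9 ± 2.3 FPKM in mutants and 24.7 ± 1.24 FPKM in controls (SD, n = 3).

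Of the angiopoietins, which bind TIE2, Angpt1 overlapped between the groups and Angpt2 did not. Angpt1, the agonist, was 10.9 ± 1.23 FPKM in mutants and 11.5 ± 1.44 FPKM in controls (SD, n = 3). Angpt2, which sprouting endothelium releases and which often acts against Angpt1, was 7.44, 6.14 and 6.49 FPKM in mutants 1, 2 and 3, against 5.96, 5.84 and 4.71 FPKM in controls 1, 2 and 3 (log2 change 0.24, SE 0.197, limma adjusted p = 0.695, and 0.18 without mutant 1). Each mutant lay above each control for Angpt2. Of the 6 tested genes of this list 2 were above 0, and the median log2 change was -0.053, and 0.0075 without mutant 1. In 2, Angpt2 and Ptprb, each mutant lay above each control (8.98% of all genes). In 1, Svep1, each lay below (11.9%). Acvrl1, the type I receptor that signals with endoglin, was 33.3, 15.2 and 14.6 FPKM in mutants 1, 2 and 3, against 13.4, 18.4 and 14.7 FPKM in controls 1, 2 and 3. As for Eng, mutant 1 alone was high. In the endoglin and ALK1 list 7 of 12 tested genes were above 0 (median 0.055, and 0.011 without mutant 1), and 0 had each mutant above or below each control (20.9% of all genes).

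Of 15 endothelial transcription factors 8 were above 0, with a median log2 change of 0.14 (45.8% of all genes above 0). Without mutant 1, which listed 2 of them at 0, it was 10 of 15 with a median of 0.054 (47% of all genes). Erg, an ETS factor of endothelium, was 31.6, 19.5 and 24.2 FPKM in mutants 1, 2 and 3, against 18.7, 21 and 19.9 FPKM in controls 1, 2 and 3, and the groups overlapped. Sox17, of arterial endothelium, was 4.66 ± 0.259 FPKM in mutants and 4.05 ± 1.14 FPKM in controls (SD, n = 3). Mef2c, which is also a factor of muscle and of hypertrophic cartilage, was 22.9, 29.8 and 30 FPKM in mutants 1, 2 and 3, against 36, 35.7 and 37.9 FPKM in controls 1, 2 and 3. Each mutant lay below each control for Mef2c (log2 change -0.41, SE 0.141, limma adjusted p = 0.695, and -0.28, SE 0.0733, limma adjusted p = 0.15, without mutant 1).

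A further list held 30 surface and adhesion genes of endothelium, of which 20 were above 0 with a median log2 change of 0.10, and 0.078 without mutant 1. Of these 7 had each mutant above each control (8.98% of all genes) and 2 each mutant below each control (11.9% of all genes). With array weights 1 of the 30 passed (0.719% of all genes passed as higher), the lectin Clec14a of sprouting endothelium. It was 15.4, 11.4 and 12.2 FPKM in mutants 1, 2 and 3, against 7.93, 8.77 and 8.02 FPKM in controls 1, 2 and 3. The lowest mutant was well above the highest control. Its weighted log2 change was 0.48, SE 0.091 (limma adjusted p = 0.0479), with equal weights 0.59, SE 0.169 (limma adjusted p = 0.695), and without mutant 1 0.47, SE 0.0968 (limma adjusted p = 0.107). Over the settings tried the limma adjusted p of Clec14a ranged from 0.0479 to 0.872. Vwf, the von Willebrand factor that endothelium stores and platelets bind, was 10.4, 8.8 and 8.62 FPKM in mutants 1, 2 and 3, against 4.06, 6.39 and 4.65 FPKM in controls 1, 2 and 3 (log2 change 0.78, SE 0.22, limma adjusted p = 0.695). Rhoj, a small GTPase of endothelium, was 72.1, 43.2 and 43.3 FPKM in mutants 1, 2 and 3, against 31.3, 38.2 and 32.6 FPKM in controls 1, 2 and 3 (log2 change 0.58, SE 0.23, limma adjusted p = 0.695). Cd36, a fatty acid transporter of capillaries that fat cells and macrophages express too, ran the other way, at 12.4, 10.1 and 9.31 FPKM in mutants 1, 2 and 3, against 12.7, 17.1 and 16.2 FPKM in controls 1, 2 and 3 (log2 change -0.49, SE 0.182, limma adjusted p = 0.695). For Vwf and Rhoj each mutant lay above each control, and for Cd36 each lay below. Without mutant 1 the log2 change was 0.71 for Vwf, 0.34 for Rhoj and -0.60 for Cd36, and the smallest limma adjusted p of the 3 was 0.129, that of Cd36.

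In the list of Notch and arterial genes 8 of 14 were above 0, with a median log2 change of 0.15, and 10 of 14 with a median of 0.26 without mutant 1. In 5 each mutant lay above each control (8.98% of all genes) and in 2 below (11.9%), Jag1 and Bmx. Jag1 was 1.54, 10.2 and 10.6 FPKM in mutants 1, 2 and 3, against 12.3, 10.8 and 11.3 FPKM in controls 1, 2 and 3. Bmx was 0, 0.851 and 0.867 FPKM in mutants 1, 2 and 3, against 1.8, 1.48 and 1.65 FPKM in controls 1, 2 and 3. Gja4, a connexin of arterial endothelium, was 16.8, 14.5 and 16 FPKM in mutants 1, 2 and 3, against 11.3, 13 and 10.5 FPKM in controls 1, 2 and 3 (log2 change 0.42, SE 0.146, limma adjusted p = 0.695). Efnb2, the arterial ephrin ligand, was 55.4, 36.3 and 36.1 FPKM in mutants 1, 2 and 3, against 26.3, 33.5 and 24.9 FPKM in controls 1, 2 and 3 (log2 change 0.56, SE 0.218, limma adjusted p = 0.695). Sema3g, an arterial semaphorin, was 7.68, 5.17 and 4.99 FPKM in mutants 1, 2 and 3, against 3.02, 3.4 and 3.51 FPKM in controls 1, 2 and 3 (log2 change 0.67, SE 0.249, limma adjusted p = 0.695). Each mutant lay above each control in these 3 genes. Without mutant 1 the log2 change was 0.37 for Gja4, 0.36 for Efnb2 and 0.50 for Sema3g, and the smallest limma adjusted p of the 3 was 0.133, that of Sema3g. The connexin Gja5 was 13.5 ± 1.97 FPKM in mutants and 9.83 ± 1.65 FPKM in controls (SD, n = 3), with mutant 1 and control 2 both at 11.5 FPKM. Dll4, the Notch ligand of tip cells, was 0, 4.9 and 3.92 FPKM in mutants 1, 2 and 3, against 3.01, 3.09 and 3.02 FPKM in controls 1, 2 and 3. Mutant 1 listed it at 0, which in this table need not mean absence, and mutants 2 and 3 were above the controls. Notch1 itself was 11.9 ± 2.96 FPKM in mutants and 8.79 ± 1.85 FPKM in controls (SD, n = 3).

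**Figure D4:**
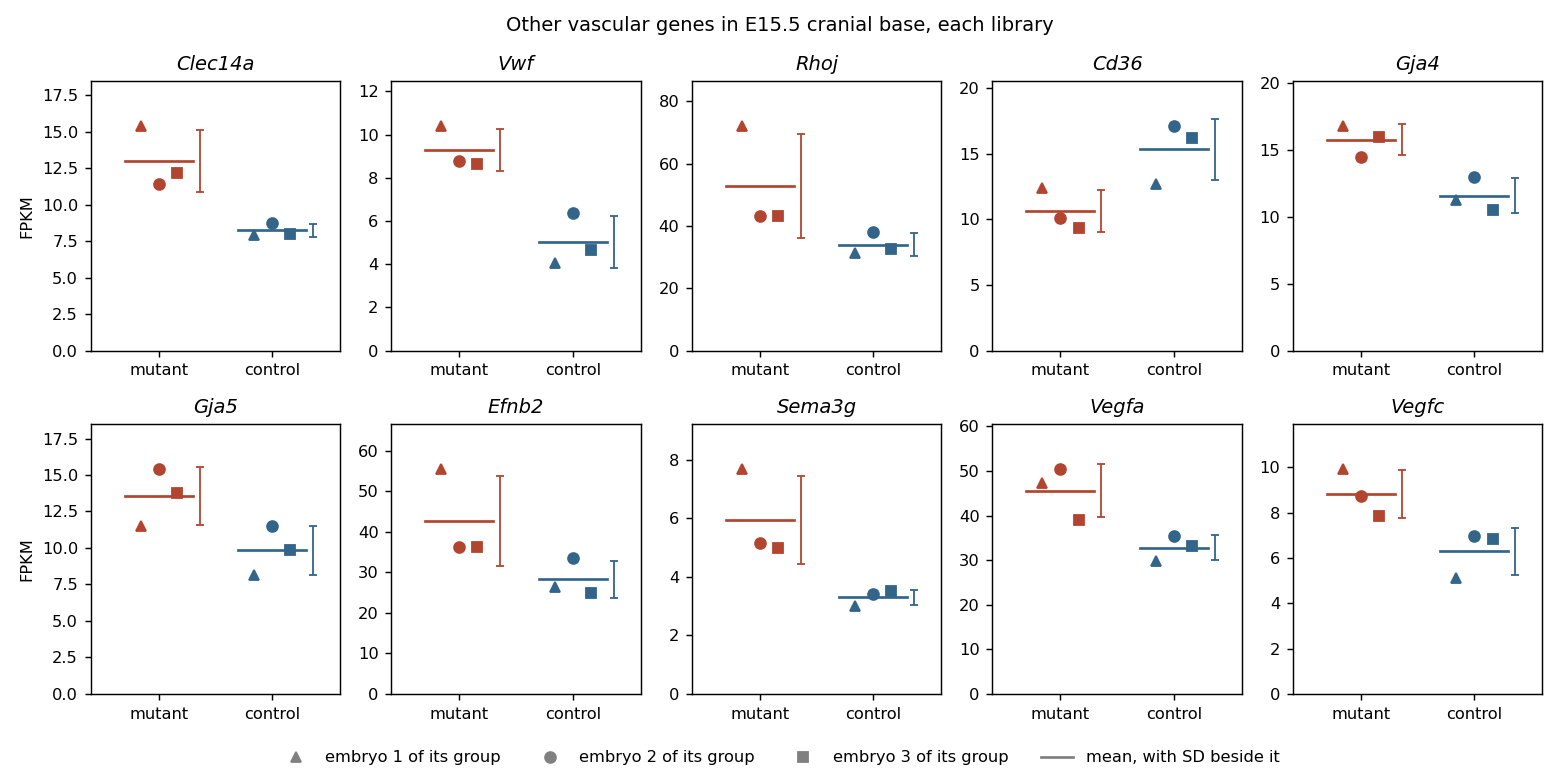
FPKM of 10 other vascular genes in each library, mutants left and controls right in each panel; the line is the group mean and the bar beside it the SD (n = 3). The genes are among the 4 with the smallest limma p of their lists, a choice that favours groups without overlap. In 9 of them each mutant lies above each control (8.98% of all genes), with mutant 1 highest for Rhoj (72.1 FPKM) and Efnb2 (55.4 FPKM). In Cd36 each mutant lies below each control (11.9% of all genes).

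Venous, tip cell, lymphatic and barrier genes were described in the same way. Of 5 venous genes 3 were above 0 (median log2 change 0.15, and 0.19 without mutant 1). In these 3, Selp, Vcam1 and Ephb4, each mutant lay above each control (8.98% of all genes). The log2 change was 0.87, SE 0.358, for Selp, which was low (0.511 ± 0.344 FPKM in controls), and 0.54, SE 0.233, for Vcam1 (limma adjusted p = 0.695 for both). The venous receptor Ephb4 was 55.4 ± 3.09 FPKM in mutants and 49.9 ± 1.43 FPKM in controls (SD, n = 3). Aplnr, the apelin receptor of veins, was 27.3 ± 2.33 FPKM in mutants and 29.8 ± 1.56 FPKM in controls (SD, n = 3). Of 7 tip cell genes 3 were above 0 (median -0.0083, and 0.18 without mutant 1, which listed 2 of them at 0). All 5 tested lymphatic genes were above 0 (median 0.13), and without mutant 1 it was 3 of 5 (median 0.088). The barrier genes depended on mutant 1, with 4 of 5 above 0 and a median of 0.49, against 3 of 5 and 0.0016 without it. Lsr, a protein of tricellular junctions that epithelia carry too, was 18.2, 18.9 and 16.7 FPKM in mutants 1, 2 and 3, against 12.3, 13.2 and 10.5 FPKM in controls 1, 2 and 3, each mutant above each control (log2 change 0.54, SE 0.143, limma adjusted p = 0.695, and 0.53 without mutant 1). None of these genes passed with equal weights, with array weights or without mutant 1. Upper-quartile scaling of all libraries brought the median of the VEGF list to 0.0035, that of the surface and adhesion genes to 0.002 and that of the lymphatic genes to 0.035.

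**Figure D5:**
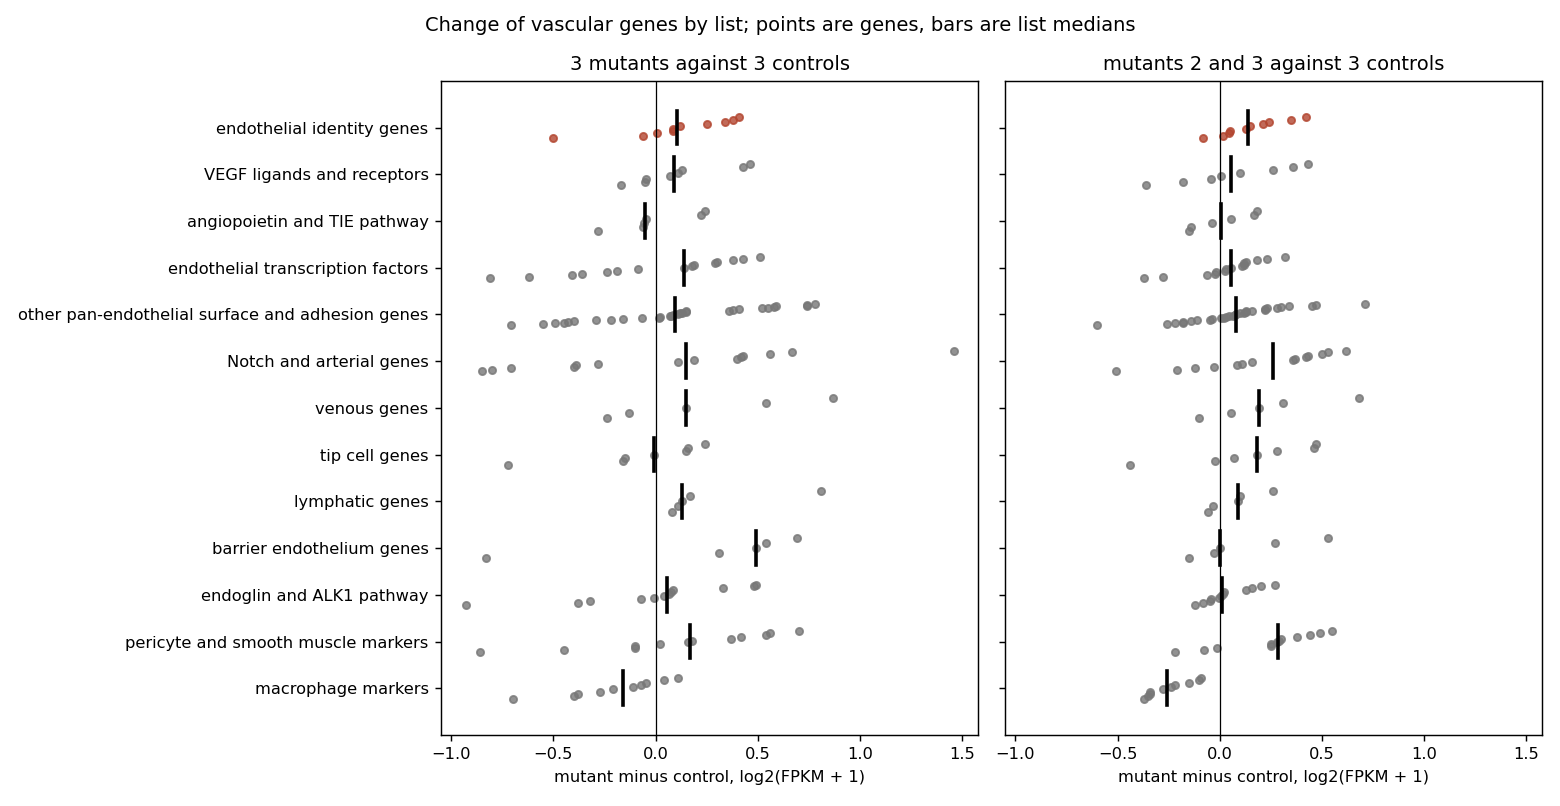
Log2 change, mutant minus control, of each tested gene by list, left with 3 mutants and right without mutant 1; bars are list medians. The endothelial identity genes (top row) have a median of 0.10 and 0.14, the Notch and arterial genes 0.15 and 0.26, and the macrophage markers -0.16 and -0.26.

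Markers of neighbouring cell types were read beside these values. Pericyte and smooth muscle markers had 8 of 12 above 0 (median log2 change 0.17, and 0.28 without mutant 1), and their summed level was 512, 462 and 486 FPKM in mutants 1, 2 and 3, against 399 to 499 FPKM in controls. Cspg4, a pericyte proteoglycan, was 20.5 ± 0.505 FPKM in mutants and 13.7 ± 0.598 FPKM in controls (SD, n = 3). It passed with array weights (limma adjusted p = 0.0245), as did 0.719% of all genes as higher. It did not pass with equal weights (limma adjusted p = 0.695) or without mutant 1 (limma adjusted p = 0.0707). Macrophage markers had 2 of 10 above 0 (median -0.16) and a summed level of 209, 174 and 158 FPKM in mutants 1, 2 and 3, against 185 to 209 FPKM in controls. In 4 of the 10 each mutant lay below each control (11.9% of all genes). Without mutant 1 it was 0 of 10 above 0 (47% of all genes, list median -0.26) and 7 with both mutants below the controls (20.1% of all genes). Platelet markers had 1 of 4 tested genes above 0 (median -0.72, and -0.21 without mutant 1). Pf4, platelet factor 4, was 0, 11 and 11.5 FPKM in mutants 1, 2 and 3, against 31.3, 23.9 and 31.3 FPKM in controls 1, 2 and 3. Its limma adjusted p was 0.0336 with array weights, with which 1.32% of all genes passed as lower. It was 0.695 with equal weights and 0.0507 without mutant 1. Ppbp, too low to be tested, shared the pattern of Pf4. It was 0, 0.282 and 0.337 FPKM in mutants 1, 2 and 3, against 1.28, 0.955 and 0.898 FPKM in controls 1, 2 and 3. The other tested platelet genes did not share this pattern in all 3 mutants. Itga2b was at 0 in mutant 1, but mutants 2 and 3, at 3.25 and 5.22 FPKM, overlapped with the controls (4.21 to 5.39 FPKM). For Gp1bb mutants 2 and 3, at 2.96 and 3.26 FPKM, lay above the controls (2.09 to 2.77 FPKM), and mutant 1 below them. The log2 change of Itgb3 was 0.26, and -0.23 without mutant 1, with mutants 2 and 3 below the controls and mutant 1 above them. Cartilage markers summed to 4280, 3780 and 3880 FPKM in mutants 1, 2 and 3, against 2520 to 3370 FPKM in controls, and bone markers to 1110, 1520 and 1040 FPKM in mutants 1, 2 and 3, against 1860 to 2680 FPKM in controls. Each mutant lay outside the range of the controls in both sums. In 6 of 7 cartilage markers each mutant lay above each control (8.98% of all genes), and in 5 of 7 bone markers below (11.9%). The bone sum rests mostly on Col1a1 and Ibsp. Runx2 overlapped between the groups (20.3 to 40.1 FPKM in mutants and 22.2 to 26.8 FPKM in controls). With array weights Sox9 and Acan passed as higher (0.719% of all genes), and Spp1 and Alpl as lower (1.32%). None of them passed with equal weights or without mutant 1. Of 6 epithelial markers 4 passed as lower with array weights (1.32% of all genes), the keratins Krt5, Krt14, Krt8 and Krt18. Of these Krt14 was higher in mutant 1, at 81.4 FPKM, than in the controls, at 57.8, 57.6 and 59.1 FPKM. Epcam and Cdh1 went the other way, with log2 changes of 0.21 and 0.24, and 0.16 and 0.10 without mutant 1. Muscle markers summed to 1930, 2610 and 2320 FPKM in mutants 1, 2 and 3, against 3020 to 4190 FPKM in controls. That sum rests mostly on Mylpf. In 3 of 4 muscle markers each mutant lay below each control (11.9% of all genes). Myog overlapped between the groups (97 to 108 FPKM in mutants and 86.4 to 114 FPKM in controls). Red cell markers summed to 1110, 1310 and 1180 FPKM in mutants 1, 2 and 3, against 1270 to 1570 FPKM in controls, with 1 of 5 tested genes above 0. That gene, Hbb-y, was 18.1, 24.7 and 37 FPKM in mutants 1, 2 and 3, against 10.7, 18.7 and 10.2 FPKM in controls 1, 2 and 3 (log2 change 0.95, SE 0.34, limma adjusted p = 0.695). The sum rests mostly on Hba-a1 and Hba-a2. The part of these cell types in the endothelial values was not tested.

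The genes whose pattern over the 6 libraries came closest to the mean pattern of the 10 were Cdc42bpb, Cux1, Grik5, Sipa1l2, Cnpy4 and Arhgef25, out of 8019 genes of at least 10 FPKM. Their centred log2(FPKM + 1) values differed from it by a root mean square of 0.023 to 0.037. Cdc42bpb, the nearest, was 28.1, 33 and 30.2 FPKM in mutants 1, 2 and 3, against 26.2, 29.2 and 28.2 FPKM in controls 1, 2 and 3. None of the 6 is a member of the vascular lists, and the mean pattern itself is a mild one, highest in mutant 2 and lowest in control 1.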

How the data were processed

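RNA-seq libraries were made from the cranial base of 6 embryos, and the deposited table gives FPKM that the authors made with Cufflinks on mm9, per the submitters' processing notes. The unit was inferred from that tool and from the values. The sources used here name no aligner, annotation or use of strand. The authors' deposited p-value and q-value (held as a score, with 99 in place of q for 7 of the 10 genes, Cdh5, Eng and Plvap excepted) come from an unnamed test. The 15 entries with the code 999999999 in place of a value were left out.

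A mean of 1 FPKM or more admitted a gene to the test, limma (version 3.58.1, under R 4.3.3), which took log2(FPKM + 1) and was two-sided, with genotype as the only term, trend and robust moderation, and Benjamini-Hochberg adjustment over all 15710 genes. A fold change on this scale understates that of low genes. No counts were at hand, so no count model was run. Alternatives were other scalings, pseudocounts and filters, array weights, the title word as a term (statmod 1.5.0) and leaving out each embryo. The scalings with mutant 1 left out were chosen after seeing the data. The computation was tested on simulated data. The members and gene lists were chosen with earlier results of these data known.

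The text names all 10 genes, up to 4 genes with the smallest p of a wider list, a few fixed vascular genes, and the 6 genes most like the 10 in pattern. Itga2b, Ppbp, Jag1, Bmx, Runx2, Col1a1, Krt14, Epcam, Flt1 to Kdr and the other ratios were chosen after their values were seen. Promoter windows are RefSeq's, on GRCm38.p6, a build other than that of the FPKM. Pecam1, Cdh5 and Plvap have no window in the table used. Protein sequences were not analysed here.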

Additional observations from a re-analysis of the deposited data

How the results depend on the processing

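Under every setting run 0 of the 10 genes passed limma's adjusted p of 0.05, and the lowest adjusted p of any was 0.0959, for Plvap with array weights. Over the settings the adjusted p ran from 0.0959 to 0.872 for Plvap, 0.211 to 0.872 for Flt1 and 0.296 to 0.872 for Cdh5. The count of all genes called was 0 as reported, 320 with array weights, 1 with a filter at 10 FPKM, 7 and 8 with upper-quartile and median scaling and mutant 1 left out, and 0 to 7 when each embryo was left out in turn. Upper-quartile scaling of all libraries gave 5 of the 10 genes above 0 (37.8% of all genes) and 1 with each mutant above each control (7.73% of all genes). With mutant 1 left out upper-quartile and median scaling gave 6 and 5 with each mutant above each control (18.5% and 17.7% of all genes). When each embryo was left out in turn this count was 3 to 5 (11.1% to 16.2% of all genes). The log2 change turned its sign with array weights for Pecam1 (0.026), Tek (0.085) and Cldn5 (-0.087), with upper-quartile scaling for Kdr (-0.078), Tie1 (-0.0089) and Emcn (-0.0096), and with the title word as a fixed term for Kdr (-0.088). It turned too with mutant 1 left out under upper-quartile scaling, for Pecam1 (0.069), Tek (0.14) and Cldn5 (-0.063), and under median scaling, for Pecam1 (0.063), Tek (0.14) and Cldn5 (-0.068). When each embryo was left out in turn it ran from -0.14 to 0.049 for Pecam1, -0.15 to 0.24 for Kdr, -0.84 to 0.13 for Tek, -0.028 to 0.17 for Emcn and -0.082 to 0.24 for Cldn5. The cause was not tested. Cdh5, Plvap and Eng kept a log2 change above 0 under each setting, and so did Flt1 under each but the filter at 10 FPKM, which leaves it out. No paired analysis by replicate number was possible because these numbers follow the order of the samples and pair no embryos; the title word, which groups 5 of the embryos across genotypes, was used as a block instead, and 0 of the 10 genes passed with it as a random effect or a fixed term (mutant 2, alone with its word, carries no weight in the fixed-term fit). DESeq2 and edgeR were not run, since the table holds no counts.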
